A study of Homo sapiens with 4 samples.

Results

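The replication-dependent histone genes encode the core histones H2A, H2B, H3 and H4 and the linker histone H1, and lie in 4 clusters of the human genome named HIST1 to HIST4. They were taken as every protein-coding gene of the deposited table whose name begins with HIST1H, HIST2H, HIST3H or HIST4H, which gave 71 of 58735 genes. HIST1 on chromosome 6 held 55 of them, HIST2 on chromosome 1 held 12, HIST3 on chromosome 1 held 3, and HIST4 on chromosome 12 held 1. By type there were 6 H1, 17 H2A, 18 H2B, 15 H3 and 15 H4 genes.

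The genes were measured by RNA sequencing in Myla, an established line of mycosis fungoides, a skin lymphoma of T cells, transduced with lentivirus. The shFOXM1 group (2 libraries, genotype labelled FOXM1 knockdown) received a short hairpin RNA against FOXM1, and the shControl group (2 libraries, genotype labelled WT) received a scrambled hairpin. All cultures got 10 uL of virus medium in 1 mL, had their medium changed after 24 h, and were grown for a further 72 h. The study asked how expression differs once FOXM1, a forkhead factor of proliferating cells, is depleted. All 4 libraries come from this cell line. The labels do not say whether both shFOXM1 libraries carried the same hairpin, so spread between them may include a hairpin difference.

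In dividing cells these genes are transcribed mainly in S phase, when new DNA has to be packed into nucleosomes. NPAT gathers at the clusters and drives their transcription, and most of their transcripts end in a conserved stem-loop bound by SLBP in place of a poly(A) tail. Some cluster genes are also known to give longer, polyadenylated transcripts, which are described most in cells that have left the cell cycle or are differentiating. Libraries were made with an mRNA kit, per the labels' protocols, and whether RNA was selected by its poly(A) tail is not stated. How far transcripts ending at the stem-loop could enter these libraries was not tested.

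Values are FPKM, which scale fragments by the length of the gene and the size of the library, and the whole reads per gene could be recovered from them. Libraries held 15017728 and 14680094 reads in shFOXM1 1 and 2, and 14147084 and 14778639 in shControl 1 and 2. Within groups, the pair of shFOXM1 libraries stood further apart than the shControl pair, with an SD of the log2 difference over 12033 genes of 0.42 in shFOXM1 and 0.26 in shControl. FOXM1 had 9.27 and 5.59 FPKM in shFOXM1 1 and 2, against 26.5 and 27.6 FPKM in shControl 1 and 2. Both shFOXM1 libraries were below both shControl libraries, at a ratio of means of 0.274 (log2 fold change -1.77, SE 0.23, limma adjusted p = 0.173). Of 10 T cell markers 7 passed the filter below, while CD4 was listed at 0 in all libraries, CD3E reached at most 0.139 FPKM and TRBC1 at most 0.185 FPKM. The 10 markers summed to 457 and 474 FPKM in shFOXM1 and to 437 and 431 FPKM in shControl.

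The annotated 3′ ends of the histone genes are shown first, because the stem-loop is the feature that sets their transcripts apart from other mRNA. In GENCODE release 29 (GRCh38), 31 of the 71 genes have a transcript model that holds a histone stem-loop, with 22 to 67 bases between the stop codon and the stem-loop (median 36). The stem-loop is 16 bases long, and it is printed here in capitals with 5 bases on each side, on the gene's own strand, for the genes that passed the filter and for which it was found.
HIST1H2AC: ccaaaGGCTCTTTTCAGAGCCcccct
HIST1H2AI: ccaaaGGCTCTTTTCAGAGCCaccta
HIST3H2A: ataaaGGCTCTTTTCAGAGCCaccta
HIST1H3H: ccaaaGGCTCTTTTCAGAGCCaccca
HIST2H2BE: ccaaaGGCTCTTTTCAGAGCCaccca
HIST3H2BB: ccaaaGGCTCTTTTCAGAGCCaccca
HIST1H2BD: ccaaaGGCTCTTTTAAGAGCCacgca
HIST1H2BC: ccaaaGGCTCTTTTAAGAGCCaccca
HIST1H4I: aaaaaGGCCCTTTTTAGGGCCcctaa
The form of HIST1H2AC was the most frequent, in 17 genes of the H2A, H2B and H3 types, and the form of HIST1H2BD was found in 5 genes of the H2B and H3 types. The H4 genes had forms of their own, that of HIST1H4I in 3 genes and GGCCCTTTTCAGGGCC in 5, and the remaining form was found in 1 H2A gene. The capitals lie at chr6:26124669-26124684 (plus strand) in HIST1H2AC, at chr6:26158587-26158602 (plus) in HIST1H2BD, at chr6:27139654-27139669 (plus) in HIST1H4I and at chr6:27810516-27810531 (plus) in HIST1H3H.

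Of the 36 histone genes with at least 10 reads in all, 20 had gene models that go on beyond this stem-loop. In 23 of the 71 genes the annotated gene ran at least 100 bases of genome past the stem-loop. Of these 23, 18 had a poly(A) signal, AATAAA or ATTAAA, in the last 50 bases of a transcript, and 10 had a spliced transcript. Of all 83129 protein-coding transcripts, 44.2% had that signal in the same window. The shares are not counted alike. A histone gene counted if any transcript not marked as incomplete at its 3′ end had the signal. The 44.2% is per transcript and includes incomplete ones. The signal is shown here in capitals, in 30 bases of the transcript, for the 6 tested genes of this class that have it.
HIST1H2AC: ctggcatgaggtAATAAAaggtaatgcaaa
HIST1H2BD: aaagttataattAATAAAatctgcggagaa
HIST1H3H: tttgtatgactaAATAAAatctgtataatc
HIST2H2BE: gctattgttattAATAAAgttaccaattaa
HIST1H2BC: cataaagacaaaATTAAAataactcctagt
HIST3H2A: gatttatctgatATTAAAagtatttatgat
These windows lie at chr6:26139076-26139105 (plus), chr6:26171313-26171342 (plus), chr6:27811266-27811295 (plus), chr1:149884465-149884494 (minus), chr6:26114878-26114907 (minus) and chr1:228456985-228457014 (minus) in the order printed. In HIST1H3H the transcript went on for 769 bases after the stem-loop, in HIST2H2BE for 1729 bases, and in HIST1H2AC for 1128 bases of a spliced transcript. The gene models of 33 further genes covered the coding part alone, among them HIST1H1C (642 bases) and HIST1H2BK (381 bases), so reads beyond their stop codons were outside the counted length. The models of 8 genes ended near the stem-loop, and those of 7 held no match to it.

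**Figure D1:**
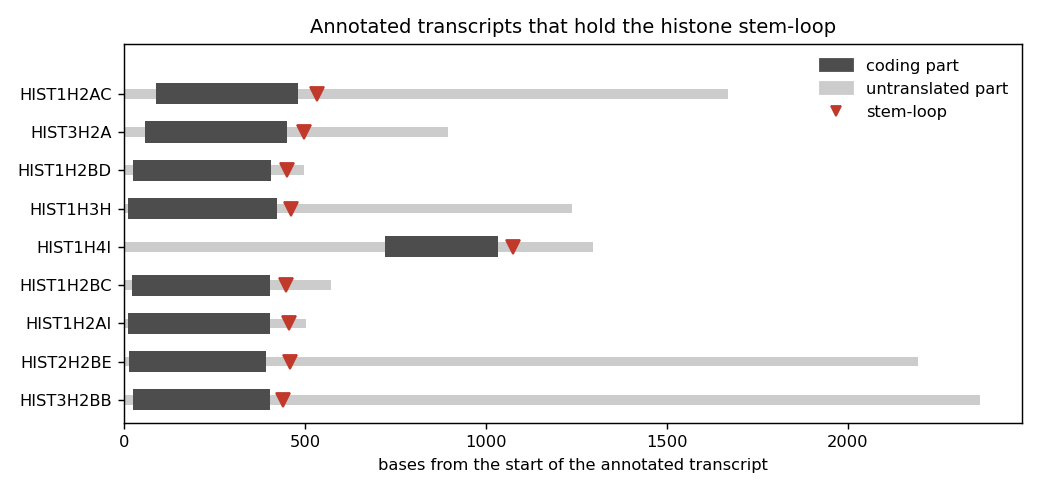
Annotated transcripts of the 9 tested histone genes in which the stem-loop was found, in bases from the start of the transcript, with the coding part as a thick bar, the untranslated part as a thin bar and the stem-loop as a triangle. The stem-loop lies close behind the coding part in every gene, and the transcript goes on for 1729 bases after it in HIST2H2BE and for 39 in HIST1H2AI.

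As a whole the histone genes were higher in both shFOXM1 libraries than in both shControl libraries. All 71 together took 1660 and 2380 reads in shFOXM1 1 and 2, against 624 and 699 reads in shControl 1 and 2. That was 111 and 162 RPM in shFOXM1 and 44.1 and 47.3 RPM in shControl (reads per 1000000 reads of the library), a 2.98-fold difference of means. The summed FPKM was 143 and 179 in shFOXM1 and 59.98 and 67.99 in shControl, a 2.52-fold difference. The groups did not overlap on either scale, and shFOXM1 2 was the higher of the shFOXM1 libraries on both. With 2 against 2 libraries a two-sided exact permutation test cannot go below p = 0.333, so sums are given as values with no test. In a culture lysed as a whole, a change in the share of cells that express a gene and a change in RNA per cell cannot be told apart.

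Reads were few for most of the genes. Of the 71, 13 had no read in any library, 22 had 1 to 9 reads over the 4 libraries, and 36 had at least 10. Among these 36, 24 were higher in both shFOXM1 libraries than in both shControl libraries, 1 was lower in both, and 11 overlapped. Over all 17362 genes with at least 10 reads the same ordering was met in the higher direction by 24.3% and in the lower direction by 24.9%. The median difference in mean log2(FPKM + 1) was 0.45 in the 36 histone genes and -0.00 in those 17362 genes.

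The filter for testing asked for 1 FPKM or more in no fewer than 2 libraries, which 12033 genes met, and these were fitted with limma on log2(FPKM + 1), a scale that understates the change of low genes. Of the histone genes 15 passed this filter, and 6 of these had no shControl library at 1 FPKM, so they passed through the shFOXM1 libraries alone and were bound to be higher there. Counts over the 15 are therefore not independent of the filter. No gene of the table, histone or other, passed an adjusted p of 0.05 (0 higher and 0 lower, 0% of 12033). An unadjusted p under 0.05 was reached by 11 of the 15 in the higher direction and by 0 in the lower, against 8.82% and 8.99% of all genes. The smallest limma adjusted p among the histone genes was 0.173, which was also the smallest in the whole table. Of the 56 histone genes outside the filter 21 had at least 10 reads, and 12 of these were higher and 1 lower in both shFOXM1 libraries, against 17.4% and 22.7% of the 5457 such genes of the table. Each p measures only the spread between these libraries, as the submitters call them biological replicates but nothing says that the cultures were transduced separately.

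The outcome of the test hung on the shFOXM1 libraries. Without shFOXM1 1, 10 histone genes passed an adjusted p of 0.05 in limma, all higher in shFOXM1, against 11.3% of all 12033 genes in that direction. Those 10 were HIST1H2BK, HIST1H1C, HIST1H2AC, HIST3H2A, HIST1H2BD, HIST1H4I, HIST1H3H, HIST1H2BC, HIST1H2AI and HIST2H2BE. Without shFOXM1 2, HIST1H2BK, HIST1H1C, HIST1H2AC and HIST1H3H passed, against 2.34% of all genes. A fit of the recovered reads with library weights (limma voom), added after seeing the data, called HIST1H1C, HIST1H2AC and HIST1H3H, against 0.166% of all genes in that direction. In each of the fits without a library the lone shFOXM1 library was assumed to vary as the shControl libraries did.

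**Figure D2:**
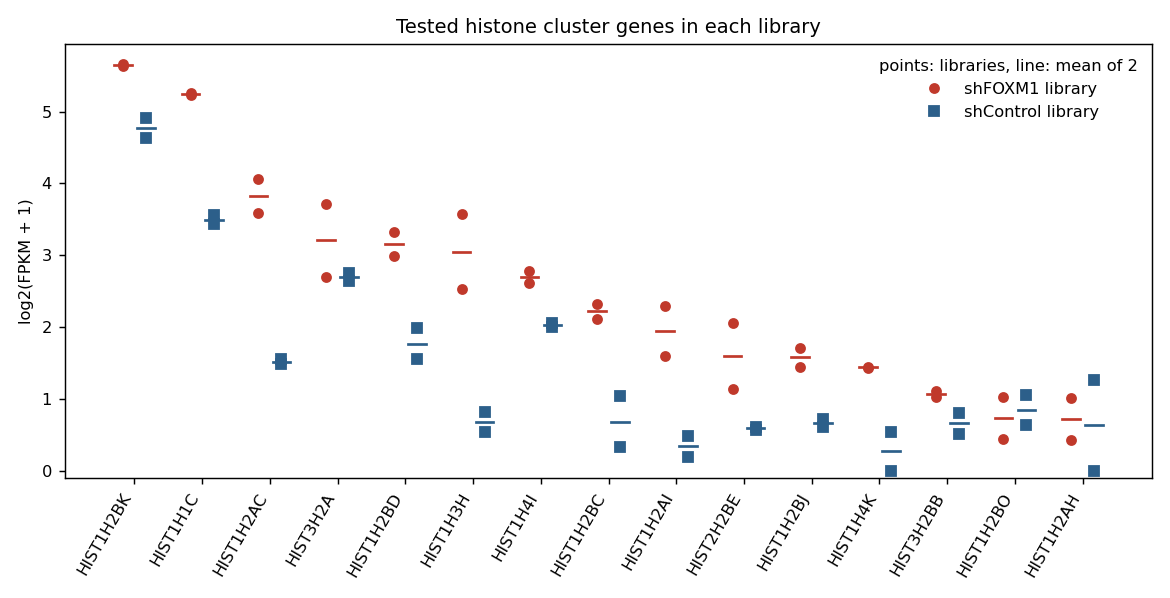
Level as log2(FPKM + 1) of the 15 histone genes that passed the filter, with a point for each library and a line at the mean of each group, shFOXM1 in red left of shControl in blue. The groups are apart in 12 genes, all higher in shFOXM1, and overlap in HIST3H2A, HIST1H2BO and HIST1H2AH. Of all tested genes 27.3% were higher in this way. For 6 of the 12 the ordering was fixed by the filter, as no shControl library reached 1 FPKM.

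H1 binds the linker DNA between nucleosomes and compacts chromatin. HIST1H1C (H1.2; ENSG00000187837, chr6:26055787-26056428, minus strand, a single coding exon) carried nearly all of the H1 signal, 96.3% of the summed H1 FPKM in shFOXM1 and 91.2% in shControl. It had 36.6 and 37.1 FPKM (348 and 363 reads) in shFOXM1 1 and 2, against 10.8 and 9.82 FPKM (98 and 93 reads) in shControl 1 and 2. The 2 libraries of each group were close to each other and the groups were far apart, at 36.9 ± 0.343 and 10.3 ± 0.662 FPKM (SD, n = 2 each), a ratio of 3.58. Its log2 fold change was 1.75 (SE 0.11), with the smallest unadjusted p of all 12033 genes (2.27e-05, limma adjusted p = 0.173). The nearest of the 71 in sequence, HIST1H1E, shares 77.3% of coding bases. HIST1H1E, which encodes H1.4, had 11 and 9 reads in shFOXM1 against 10 and 7 in shControl, and these overlapped. HIST1H1D had 4 and 7 reads in shFOXM1 against 1 and 2 in shControl. HIST1H1A had 1 read in all, and HIST1H1B and the testis gene HIST1H1T had none.

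H2A pairs with H2B, and the dimers complete the nucleosome around its H3 and H4 core. HIST1H2AC (ENSG00000180573, chr6:26124145-26139116, plus strand) had 11.0 and 15.7 FPKM (271 and 399 reads) in shFOXM1 1 and 2, against 1.94 and 1.79 FPKM (46 and 44 reads) in shControl 1 and 2. The groups did not overlap, with 13.3 ± 3.34 FPKM in shFOXM1 and 1.87 ± 0.11 FPKM in shControl (SD, n = 2 each), a ratio of 7.15. On the log2 scale the change was 2.30 (SE 0.19, limma adjusted p = 0.173). Its stem-loop and the poly(A) signal of its spliced transcript are printed above.

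HIST3H2A, the H2A gene of the HIST3 cluster (ENSG00000181218, chr1:228456979-228457873, minus strand), differed between the shFOXM1 libraries. It had 5.51 and 12.2 FPKM (73 and 166 reads) in shFOXM1 1 and 2, against 5.75 and 5.23 FPKM (73 and 69 reads) in shControl 1 and 2. Only shFOXM1 2 was high, and shFOXM1 1 lay within the shControl range (log2 fold change 0.51, SE 0.35, limma adjusted p = 0.476). Without shFOXM1 1 its log2 fold change was 1.02, and without shFOXM1 2 it was 0.01.

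HIST1H2AI (ENSG00000196747, chr6:27808199-27808701, plus strand) had 2.02 and 3.91 FPKM (15 and 30 reads) in shFOXM1, against 0.14 and 0.404 FPKM (1 and 3 reads) in shControl. It passed the filter only through the shFOXM1 libraries, so its higher level there was fixed by the filter (log2 fold change 1.61, SE 0.29, limma adjusted p = 0.176). Its shControl reads are too few for a firm ratio, and its coding sequence is 96.7% identical to that of HIST1H2AJ. HIST1H2AH had 2 and 6 reads in shFOXM1 against 0 and 8 in shControl, and HIST1H2AG 25 and 27 in shFOXM1 against 15 and 12 in shControl. HIST2H2AC was, of all histone genes with at least 10 reads, the gene that was lower in both shFOXM1 libraries, with 1 and 2 reads there against 6 and 4 in shControl. Of the 8 H2A genes with at least 10 reads, 4 were higher and 1 was lower in both shFOXM1 libraries, against 24.3% and 24.9% of all 17362 genes with at least 10 reads.

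H2B was the type with the most reads and the most members above the filter. HIST1H2BK (ENSG00000197903, chr6:27146418-27146798, minus strand) had the highest FPKM of all 71 genes in every library, with 49.5 and 48.6 FPKM (279 and 282 reads) in shFOXM1 1 and 2, against 23.9 and 29.2 FPKM (129 and 164 reads) in shControl 1 and 2. Both shFOXM1 libraries were above both shControl libraries, at 49.0 ± 0.636 and 26.5 ± 3.76 FPKM (SD, n = 2 each), a ratio of 1.85 (log2 fold change 0.87, SE 0.13, limma adjusted p = 0.173). It made up 30.4% of the summed FPKM of all 71 genes in shFOXM1 and 41.4% in shControl. These shares depend on its short counted length of 381 bases. On reads, HIST1H1C was above it in both shFOXM1 libraries (348 and 363) and below it in both shControl libraries (98 and 93). Without HIST1H2BK the summed FPKM of the other 70 differed 2.99-fold.

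HIST1H2BD (ENSG00000158373, chr6:26158146-26171349, plus strand) had 6.90 and 8.97 FPKM (89 and 119 reads) in shFOXM1, against 1.94 and 2.96 FPKM (24 and 38 reads) in shControl. HIST1H2BC (ENSG00000180596, chr6:26114873-26123926, minus strand) had 3.32 and 4.01 FPKM (41 and 51 reads) in shFOXM1, against 0.254 and 1.06 FPKM (3 and 13 reads) in shControl. Neither gene overlapped between groups, with log2 fold changes of 1.38 (SE 0.21) for HIST1H2BD and 1.54 (SE 0.28) for HIST1H2BC and limma adjusted p of 0.173 and 0.176. On mean FPKM HIST2H2BE led the HIST2 cluster in shFOXM1, while HIST2H2AC led it in shControl. HIST2H2BE had 1.20 and 3.14 FPKM in shFOXM1 against 0.482 and 0.525 FPKM in shControl (log2 fold change 1.01, SE 0.33). HIST1H2BJ had 2.28 and 1.73 FPKM in shFOXM1 against 0.519 and 0.642 FPKM in shControl (log2 fold change 0.92, SE 0.19). HIST2H2BE and HIST1H2BJ passed the filter only through the shFOXM1 libraries, so their higher level there was fixed by the filter. Of the shFOXM1 libraries, shFOXM1 2 was the higher for HIST2H2BE and shFOXM1 1 for HIST1H2BJ.

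The rest of the H2B genes had a lower mean FPKM in shFOXM1 than the H2B genes named above had in shFOXM1. This does not compare them with shControl. HIST3H2BB had 1.03 and 1.17 FPKM in shFOXM1 against 0.745 and 0.430 FPKM in shControl (log2 fold change 0.41, SE 0.20). It too passed the filter only through the shFOXM1 libraries. HIST1H2BO had 0.355 and 1.03 FPKM in shFOXM1 against 0.555 and 1.07 FPKM in shControl, and was the tested histone gene with a negative log2 fold change (-0.11, SE 0.29). Below the filter, HIST1H2BG had 16 and 31 reads in shFOXM1 against 4 and 4 in shControl, HIST2H2BF 10 and 28 in shFOXM1 against 6 and 7 in shControl, and HIST1H2BN 38 and 85 in shFOXM1 against 15 and 16 in shControl. The model of HIST1H2BN overlaps HIST1H2AK and HIST1H2AL, so its reads cannot be placed with certainty. HIST1H2BH rested on 1 library, with 3 and 40 reads in shFOXM1 against 1 and 1 in shControl. HIST1H2BE, with 4 and 12 reads in shFOXM1 against 9 and 6 in shControl, overlapped. So did HIST1H2BF, with 2 and 12 reads in shFOXM1 against 0 and 2 in shControl.

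H3 and H4 form the core tetramer of the nucleosome. HIST1H3H (ENSG00000278828, chr6:27810064-27811300, plus strand) had 4.75 and 10.9 FPKM (87 and 205 reads) in shFOXM1 1 and 2, against 0.456 and 0.767 FPKM (8 and 14 reads) in shControl 1 and 2. Its ratio of 12.8 was the largest among the tested histone genes, with 7.81 ± 4.33 FPKM in shFOXM1 and 0.611 ± 0.22 FPKM in shControl (SD, n = 2 each). Both shFOXM1 libraries were far above shControl while differing widely from each other (log2 fold change 2.37, SE 0.37, limma adjusted p = 0.173). Without shFOXM1 1 the log2 fold change was 2.89, and without shFOXM1 2 it was 1.84. It passed the filter only through the shFOXM1 libraries. The other H3 genes were low, with 25 reads or fewer over the 4 libraries: HIST1H3G had 8 and 12 reads in shFOXM1 against 2 and 3 in shControl, and HIST1H3E had 9 and 7 in shFOXM1 against 2 and 1 in shControl.

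HIST1H4I (ENSG00000276180, chr6:27138588-27139881, plus strand) was the main H4 gene, with 5.12 and 5.88 FPKM (98 and 116 reads) in shFOXM1, against 3.16 and 2.99 FPKM (58 and 57 reads) in shControl. The groups did not overlap, at a ratio of 1.79 (log2 fold change 0.67, SE 0.13, limma adjusted p = 0.183). HIST1H4H, just under the filter, had 28 and 71 reads in shFOXM1 against 6 and 9 in shControl, a ratio of 6.34. HIST1H4K had 8 and 8 reads in shFOXM1 against 2 and 0 in shControl, and passed the filter only through the shFOXM1 libraries. Its coding sequence is identical to that of HIST1H4J, so reads of the pair may have been split between them. HIST1H4J went the other way, with 1 and 0 reads in shFOXM1 against 4 and 1 in shControl, so the difference of the pair is smaller than that of HIST1H4K alone. HIST4H4, the only gene of HIST4, had 38 and 24 reads in shFOXM1 against 22 and 30 in shControl, and overlapped.

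Sequence identity limits how far reads can be given to single histone genes. 8 of the 71 share their whole coding sequence with another member, 12 are at least 95% identical to one, and the median identity to the nearest member is 89.4%. In addition 16 overlap another gene, and the strand setting of the counting is not given in the sources used here. Sums over a histone type depend less on that assignment than single genes do, although how reads that map to several places were treated is not given in the sources used here.

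Summed by type, all 5 types were higher in both shFOXM1 libraries. H1 took 24.2 and 25.8 RPM in shFOXM1 against 7.71 and 6.97 RPM in shControl, a ratio of 3.41. H2A took 26.5 and 44.1 RPM in shFOXM1 against 10.3 and 10.2 RPM in shControl, a ratio of 3.44. H2B took 39.8 and 58.3 RPM in shFOXM1 against 17.4 and 20.7 RPM in shControl, a ratio of 2.58. The groups stayed apart in each of these types, and the libraries of shFOXM1 were closest to each other for H1. H3 took 7.39 and 16.7 RPM in shFOXM1 against 1.70 and 1.83 RPM in shControl, a ratio of 6.83. H4 took 12.7 and 17.2 RPM in shFOXM1 against 6.998 and 7.579 RPM in shControl, a ratio of 2.05. H3 had the largest ratio and H4 the smallest, and whether the ratios differ from each other was not tested. Single genes weighed on these sums in both directions. Without its leading gene the log2 ratio of summed FPKM was 0.53 for H1 (1.76 with it), 0.79 for H2A (1.41 with it) and 0.62 for H3 (2.19 with it). For H2B it was 1.62 without the leading gene and 1.08 with it, and for H4 1.29 without and 1.06 with it. HIST1H3H made up 75.5% of the summed H3 FPKM in shFOXM1 and 27% in shControl. Without HIST1H3H the summed H3 FPKM overlapped between groups, while the summed H3 reads stayed apart.

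**Figure D3:**
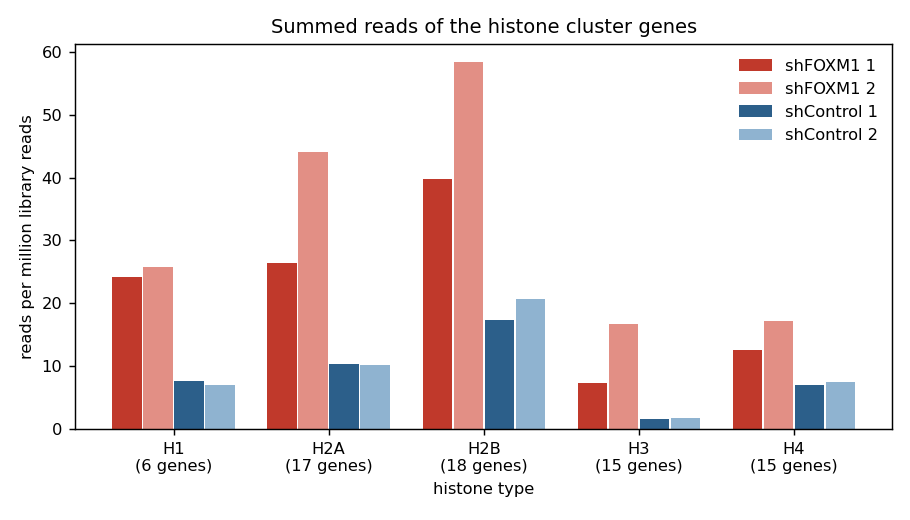
RPM (reads scaled to library size) summed over the genes of each histone type, with a bar for each library, shFOXM1 in red left of shControl in blue. In all 5 types both shFOXM1 bars are above both shControl bars, and shFOXM1 2 is the higher bar in each.

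By cluster, HIST1 held most of the reads. It took 96.9 and 135 RPM in shFOXM1 against 33.0 and 37.3 RPM in shControl, a ratio of 3.30. HIST2 took 3.86 and 11.3 RPM in shFOXM1 against 2.55 and 2.23 RPM in shControl, and HIST3 took 7.26 and 14.2 RPM in shFOXM1 against 6.998 and 5.752 RPM in shControl. For HIST2 and HIST3 most of the difference lay in shFOXM1 2, and on summed FPKM both overlapped between groups: HIST2 had 2.12 and 6.32 FPKM in shFOXM1 against 2.81 and 1.89 in shControl, and HIST3 had 6.54 and 13.3 in shFOXM1 against 6.64 and 5.80 in shControl.

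Within HIST1 the genes fall into 3 groups separated by over 500000 bases. The first, 34 genes at chr6:25726132-26285638, took 57.1 and 79.6 RPM in shFOXM1 against 15.3 and 16.9 RPM in shControl, a ratio of 4.25. The second, 5 genes at chr6:27125897-27147515 with HIST1H2BK among them, took 29.03 and 31.06 RPM in shFOXM1 against 14.8 and 16.9 RPM in shControl, a ratio of 1.90. The third, 16 genes at chr6:27807444-27893843, took 10.8 and 24.3 RPM in shFOXM1 against 2.90 and 3.52 RPM in shControl, a ratio of 5.47. All 3 groups kept shFOXM1 above shControl, and the difference between their ratios was not tested.

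Other genes in the same stretch of chromosome 6 were measured too, and more of them were higher than lower. Of 75 further genes there 12 passed the filter, with a median log2 fold change of 0.16, 6 higher and 1 lower in both shFOXM1 libraries, against 27.3% and 25.9% of all tested genes. HCG11, a non-coding RNA gene, was the highest of them, with 6.22 and 7.58 FPKM in shFOXM1 against 3.58 and 3.52 FPKM in shControl (log2 fold change 0.79, SE 0.14, limma adjusted p = 0.176). BTN2A2 and BTN2A1, butyrophilin genes, had log2 fold changes of 0.52 and 0.38.

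**Figure D4:**
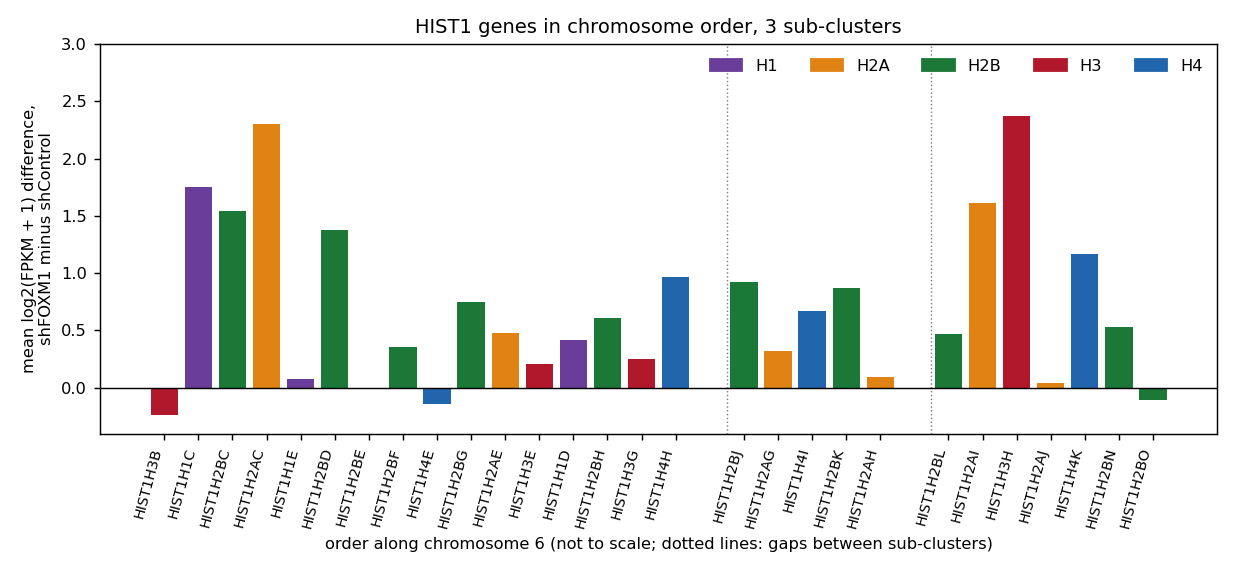
Difference in mean log2(FPKM + 1), shFOXM1 minus shControl, of the 28 HIST1 genes with at least 10 reads, in their order along chromosome 6 and coloured by histone type, with dotted lines between the 3 groups of genes. High bars stand in each group, up to 2.30 at HIST1H2AC, 0.92 at HIST1H2BJ and 2.37 at HIST1H3H.

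The genes were also counted by class of gene model, beside the 24.3% higher and 24.9% lower of all genes with at least 10 reads. Among the 23 genes whose models run on past the stem-loop, 20 had at least 10 reads, and 15 of those were higher in both shFOXM1 libraries and 0 lower, with a median log2(FPKM + 1) difference of 0.52. Among the 33 with the coding part alone, 10 had at least 10 reads, and 4 were higher and 1 lower, with a median of 0.09. Longer models collect more reads at equal FPKM, and whether the classes differ was not tested. HIST1H1C and HIST1H2BK, which have the coding part alone, were among those 4.

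HIST1H1C, HIST1H2AC, HIST1H2BC, HIST1H2BD, HIST1H2BJ, HIST1H2BK and HIST2H2BE were listed as cluster genes known to give polyadenylated transcripts. Together they took 1099 and 1344 reads in shFOXM1, against 322 and 378 reads in shControl, a ratio of their shares of the libraries of 3.41. All 7 were higher in both shFOXM1 libraries, an ordering met by 27.3% of all tested genes. The list was chosen with earlier results of these data known, so this count is not independent of the data. Their median log2 fold change was 1.38, against -0.00 over all tested genes. HIST2H2BE and HIST1H2BJ among them passed the filter only through the shFOXM1 libraries. The other 64 genes took 561 and 1036 reads in shFOXM1 against 302 and 321 in shControl, a ratio of shares of 2.51. Of these 64, 29 had at least 10 reads, of which 17 were higher in both shFOXM1 libraries and 1 was lower, against 24.3% and 24.9% of all genes with at least 10 reads. The testis genes HIST1H1T, HIST1H2AA and HIST1H2BA were listed at 0 in all libraries. The difference between the lists was not tested, and the listed genes make up most of the reads.

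Many H2A and H2B genes lie head to head and share the DNA between them. 11 such pairs with at most 500 bases between their starts were found, over 22 genes. HIST1H2BC and HIST1H2AC, 218 bases apart, were both higher in shFOXM1. The same held for HIST1H2BJ and HIST1H2AG, 291 bases apart, and for HIST1H2BG and HIST1H2AE, 282 apart. It also held for HIST1H2BL and HIST1H2AI, 267 apart. HIST1H2AE rests on 13 reads in all and HIST1H2BL on 23. Of all genes with at least 10 reads 24.3% were higher in both shFOXM1 libraries. In other pairs the neighbours differed: HIST2H2BE was higher in both shFOXM1 libraries and HIST2H2AC, 322 bases away, was lower in both. HIST1H2BK was higher while HIST1H2AH, 330 bases away, overlapped on 16 reads in all. HIST3H2BB was higher in both shFOXM1 libraries and HIST3H2A, 233 bases away, overlapped. In the remaining pairs no gene kept the groups apart. HIST1H2AJ, HIST1H2BM, HIST1H2BF and HIST1H2BO overlapped, and HIST1H2AA, HIST1H2BA, HIST1H2AD and HIST1H2AM had no read.

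Promoter sequences from RefSeq (GRCh38.p14) were at hand for 65 of the 71 genes, as windows with 250 bases before and 50 after a RefSeq start within 1000 bases of the gene's start in the table. The 150 bases before the start are printed for HIST1H1C, HIST1H2AC, HIST1H2BK and HIST1H3H, and for HIST1H2BC, which shares its upstream DNA with HIST1H2AC. HIST1H2BK had the highest FPKM of the H2B genes but not the largest change, and no H4 promoter is printed. Capitals mark the motifs searched, each on both strands. The TATA box was searched as TATAAA and the CCAAT box as CCAAT, which reads ATTGG on the other strand. The octamer of H2B promoters was searched as ATTTGCAT, which reads ATGCAAAT on the other strand. The box of H1 promoters was searched as AAACACA, a forkhead core as TAAACA, and the cell cycle homology element as TTTGAA.
HIST1H1C: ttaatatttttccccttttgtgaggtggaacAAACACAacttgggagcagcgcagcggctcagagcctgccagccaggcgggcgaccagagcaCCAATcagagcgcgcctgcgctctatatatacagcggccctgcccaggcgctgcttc
HIST1H2AC: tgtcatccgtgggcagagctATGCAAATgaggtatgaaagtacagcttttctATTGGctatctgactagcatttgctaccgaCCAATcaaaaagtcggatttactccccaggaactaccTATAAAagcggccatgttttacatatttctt
HIST1H2BC: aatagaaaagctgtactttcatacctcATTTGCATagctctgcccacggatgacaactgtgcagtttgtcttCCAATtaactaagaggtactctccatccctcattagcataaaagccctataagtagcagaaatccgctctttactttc
HIST1H2BK: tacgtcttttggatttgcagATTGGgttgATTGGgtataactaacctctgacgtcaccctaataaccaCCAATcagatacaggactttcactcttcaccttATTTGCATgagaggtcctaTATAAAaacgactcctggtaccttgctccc
HIST1H3H: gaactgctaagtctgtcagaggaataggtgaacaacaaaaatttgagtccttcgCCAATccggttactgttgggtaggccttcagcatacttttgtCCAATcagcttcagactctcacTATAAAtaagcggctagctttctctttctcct
These lie at chr6:26056471-26056620 (minus), chr6:26124022-26124171 (plus), chr6:26123927-26124076 (minus), chr6:27146856-27147005 (minus) and chr6:27809901-27810050 (plus) in the order printed. The windows of HIST1H2AC and HIST1H2BC overlap, and the octamer in capitals in both is the same stretch of DNA read from either strand.

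Over the whole windows, TATAAA was found in 44 of the 65 histone promoters, against 11.5% of all 35116 promoter windows of the same length, and CCAAT in 55, against 34.6%. CCAAT was present in 6 of 6 H1, 16 of 16 H2A, 17 of 17 H2B and 13 of 13 H3 promoters, and in 3 of 13 H4 promoters. The octamer occurred in 11 of 16 H2A and 13 of 17 H2B promoters and in no H1, H3 or H4 promoter, against 1.77% of all promoters. Windows of head-to-head H2A and H2B genes can overlap, so the same site can count for both genes, for this and the other motifs. AAACACA occurred in 6 of 6 H1 promoters and in 9 of 65 in all, against 5.64%. The forkhead core TAAACA was in 11 of 65, against 12.3% of all promoters, and TTTGAA in 23, against 15.2%. A match is a description of these letters in this window, and none of the motifs was tested against the counts.

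Genes that work on histone mRNA, on new histones and in DNA replication were looked at from lists, beside the cluster genes. Of 16 genes for histone transcription and 3′ end formation, all tested, 3 were higher and 4 lower in both shFOXM1 libraries, near or below the 27.3% and 25.9% of all tested genes, and their median log2 fold change was 0.02. SLBP, which binds the stem-loop printed above, had 60.8 and 48.5 FPKM in shFOXM1 against 80.4 and 80.6 FPKM in shControl (log2 fold change -0.56, SE 0.14, limma adjusted p = 0.195). Both shFOXM1 libraries were below shControl. ERI1, an exonuclease that trims the stem-loop end, and CASP8AP2, a partner of NPAT, also lay lower, with log2 fold changes of -0.34 and -0.23. SRRT, which links the cap-binding complex to RNA processing, had a log2 fold change of -0.18. NPAT itself had 9.53 and 7.5 FPKM in shFOXM1 against 7.85 and 8.90 FPKM in shControl and overlapped (log2 fold change 0.02, SE 0.16).

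Chaperones bring new histones to replicated DNA. Of 12 listed, 11 were tested, with 2 higher and 8 lower in both shFOXM1 libraries, against 27.3% and 25.9% of all tested genes. Their median log2 fold change was -0.44. ASF1B, which hands H3 and H4 on, had 55.9 and 45.5 FPKM in shFOXM1 against 89.9 and 89.9 FPKM in shControl (log2 fold change -0.82, SE 0.13). NASP, which holds soluble histones, had 18.6 and 16.3 FPKM in shFOXM1 against 27.2 and 27.5 FPKM in shControl (-0.62). RBBP4, a subunit of the chromatin assembly factor CAF-1, and TONSL, which reads newly placed histones, had log2 fold changes of -0.58 and -0.51. The higher ones were ASF1A (0.44) and CDAN1 (0.33), chosen for mention after their values were seen.

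Replacement variants are histones made outside the clusters, also beyond S phase. Of 12 listed 8 were tested, with 0 higher and 7 lower in both shFOXM1 libraries, against the same 27.3% and 25.9%, and their median log2 fold change was -0.32. H2AFZ, which encodes H2A.Z, had 115 and 98.5 FPKM in shFOXM1 against 166 and 170 FPKM in shControl (log2 fold change -0.65, SE 0.12). The log2 fold change was -0.38 for H2AFV, -0.43 for H2AFX and -0.94 for the centromeric H3 variant CENPA. Of 28 DNA replication genes of S phase, 27 were lower and 0 higher in both shFOXM1 libraries, against 25.9% and 27.3% of all tested genes. Their median log2 fold change was -0.57. MCM3, a subunit of the replicative helicase, had 82.1 and 74.4 FPKM in shFOXM1 against 133 and 125 FPKM in shControl (-0.72, SE 0.11). UHRF1, which keeps DNA methylation through replication, and TK1, a thymidine kinase, had log2 fold changes of -1.08 and -1.05. In all these lists 0 genes passed an adjusted p of 0.05 in limma, and by an unadjusted p under 0.05 the S phase list had 24 lower and 0 higher, against 8.99% and 8.82% of all tested genes. The part of the lower S phase genes in the histone values was not tested.

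**Figure D5:**
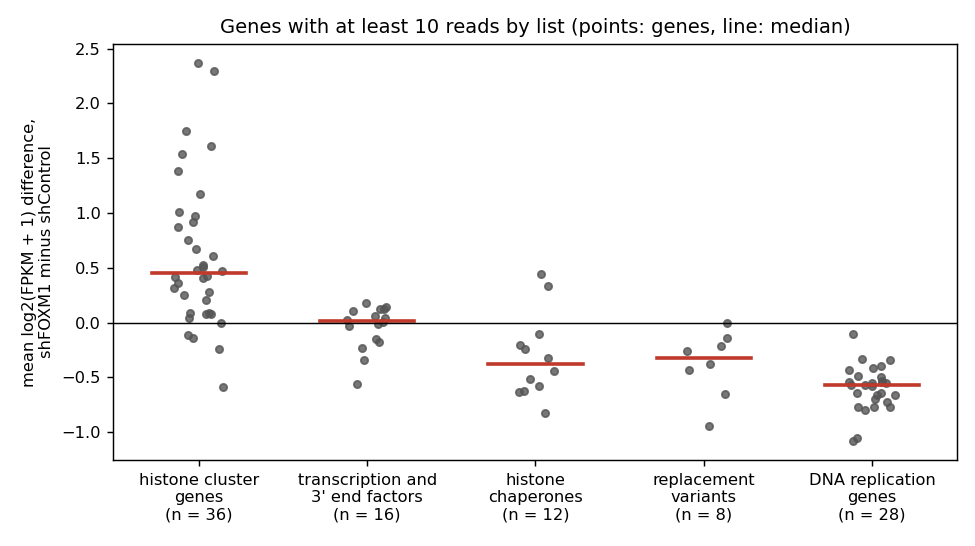
Difference in mean log2(FPKM + 1), shFOXM1 minus shControl, of genes with at least 10 reads by list, with a point for each gene and a line at the median. The 36 histone cluster genes have a median of 0.45, and the 28 DNA replication genes a median of -0.57.

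Markers of other cell types were low apart from a few genes. CD79A, a B cell marker, had 0.27 and 7.38 FPKM in shFOXM1 against 1.74 and 1.44 FPKM in shControl, while MS4A1 was listed at 0 in all libraries and the 5 B cell markers summed to 0.378 and 7.8 FPKM in shFOXM1 and 1.92 and 1.71 FPKM in shControl. The 5 fibroblast and endothelium markers summed to 48.4 and 20.4 FPKM in shFOXM1 and 27.1 and 25.5 FPKM in shControl, and COL3A1 alone had 45.1 and 15.9 FPKM in shFOXM1 against 24.5 and 22.7 FPKM in shControl. None of these sums kept the groups apart. The 5 monocyte and macrophage markers summed to 13.6 and 8.53 FPKM in shFOXM1 and 12.9 and 9.11 FPKM in shControl, nearly all of it CSF1R, with FCGR3A listed at 0. The 5 keratinocyte markers summed to 18.4 and 18.4 FPKM in shFOXM1 and 17.8 and 17.5 FPKM in shControl, from KRT10 and TP63, with KRT1 and KRT14 listed at 0. HIST3H2A, HIST1H3H, HIST2H2BE and HIST1H2BH were highest in shFOXM1 2, the library with the high CD79A value, and the part of what sets that library apart in their levels was not tested.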

How the data were processed

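RNA was sequenced from 4 Myla libraries, 2 shFOXM1 and 2 shControl. The authors deposited a table of FPKM for 58735 genes with the gene length, per the file headers. How reads were aligned and counted is not given in the sources used here. GRCm38 and mm10, both mouse builds, are named in the submitters' processing notes, while the identifiers and coordinates of all 71 histone genes equal those of human GENCODE release 29 (GRCh38). Columns named sh0 were taken as shControl, and sh1 and sh2 as shFOXM1. FPKM times length gave whole reads for all values within 0.001 read, and there were 0 columns of other samples.

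The members and lists were chosen with earlier results of these data known. Genes reaching 1 FPKM in 2 or more libraries were fitted with limma 3.58.1 in R 4.3.3 on log2(FPKM + 1), empirical Bayes with a trend, two-sided, p adjusted by Benjamini-Hochberg over all 12033. The fit was tested on simulated data. In a 1 kb gene, 1 read was worth 0.0656 to 0.0705 FPKM. Chi-square per degree of freedom between libraries of a group was 36.5 in shFOXM1 and 3.93 in shControl, above sampling noise, so each counted as 1 sample. Values were given in full for histone genes with a mean of at least 5 FPKM in either group and the 8 with the smallest unadjusted p, and list genes were the 4 tested members with the smallest unadjusted p, with NPAT and SLBP always; 1 gene that this took is not reported here. Genes under the filter, the unlisted neighbours and CDAN1 and ASF1A were named after their values were seen. Alternatives were quantile normalization, pseudocounts of 0.1 and 0.01, a filter at a mean of 5 FPKM or none, limma voom on the recovered reads, no trend, a replicate block, each library left out, and, for sums, shares of reads and leaving out the leading gene. Library weights in voom were chosen after seeing the data.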

Additional observations from a re-analysis of the deposited data

How the results depend on the processing

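Across all alternatives 0 histone genes were called lower by limma. The count called higher was 0 in the chosen fit and ranged from 0 to 10 when each library was left out in turn, and over all genes from 0 to 1360 higher and 0 to 1744 lower; the fits with calls were those without shFOXM1 1 (1360 and 1744) and without shFOXM1 2 (281 and 355), each with fewer libraries of the more spread group. Limma voom with library weights (0.381 and 0.38 for shFOXM1 1 and 2 against 2.63 and 2.62 for shControl 1 and 2), an alternative added after seeing the data, gave 20 calls higher and 9 lower, among them 3 histone genes, HIST1H1C, HIST1H2AC and HIST1H3H. Pseudocounts, filters, quantile normalization, voom without weights and no trend gave 0 calls. The replicate block also gave 0 calls; the numbers are not said to pair libraries, and same-numbered deviations correlated at 0.0421 over 2 pairs. Of 185 values of single genes, 164 kept their direction and side of the threshold and 17 came to pass it. The 4 that changed sign were among those with a library left out, where HIST1H2BO ranged from -0.40 to 0.18 and HIST1H2AH from -0.54 to 0.72, both on few reads. For sums, the log2 ratio of FPKM without the leading gene was 0.53 for H1, 0.79 for H2A, 1.62 for H2B, 0.62 for H3 and 1.78 for HIST1, and as a share of reads it was 1.37 for H2B and 1.72 for HIST1. Leaving out each library moved HIST2 between -0.14 and 1.43 and HIST4 between -0.19 and 0.52. The cause of these shifts was not tested. Depth limits the 22 genes with 1 to 9 reads and the 13 with none, in which a difference was not detectable.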

Other observations

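Histone genes of the table that are annotated as other than protein coding were looked at as well. There were 19 such rows with a HIST name, of which 7 had any read and 3 had at least 10. Together they took 128 and 167 reads in shFOXM1 1 and 2, against 79 and 83 reads in shControl 1 and 2. HIST2H2BC, a transcribed pseudogene of the H2B type, had 92 and 124 reads in shFOXM1 against 57 and 60 in shControl. HIST2H2BD, another, had 24 and 36 reads in shFOXM1 against 16 and 20 in shControl. HIST2H2BC and HIST2H2BD were higher in both shFOXM1 libraries, an ordering met by 24.3% of all genes with at least 10 reads. Neither passed the filter for the test. HIST3H2BA, the remaining row with at least 10 reads, had 6 and 0 reads in shFOXM1 against 6 and 3 in shControl, and overlapped. How many reads of these pseudogenes stem from near-identical coding genes was not tested.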
